A study of Bos taurus with 38 samples.

Results

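Each of 9 Holstein dairy cows was biopsied in the liver once on a control diet (C, low in concentrate) and once on a high concentrate diet (HC), and the response described here is HC minus C within the cow. These are 18 of the 38 samples of the series, all Holstein samples, chosen by the breed label. The other 20 came from 10 Jersey cows treated the same way. Every cow ate both diets, so breed, parity and feed efficiency are the same on both sides of each difference. Of the 9 Holsteins, 5 were labelled as of high and 4 as of low feed efficiency, and 3 were in parity 1, 3 in parity 2 and 3 in parity 3. The study's table of animals gives the order of the diets, which differed: 5 cows ate HC first and 4 ate C first. A biopsy is whole tissue, so fewer cells of a type and less RNA per cell cannot be told apart.

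Concentrate feed is rich in starch, which rumen microbes ferment to short-chain fatty acids with a larger share of propionate than forage gives. The ruminant liver takes propionate from the portal blood and makes glucose from it, while most new fatty acids are made in adipose tissue and the mammary gland. The liver also oxidises fatty acids, makes ketones, bile acids and plasma proteins, and converts ammonia to urea.

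Read pairs were counted for 24616 Ensembl genes, of which 12025 had 1 CPM (read pairs of the gene scaled to the library size) or more in 8 of the 18 samples or more and were tested. The read pairs on genes numbered 17472750 in the sample with the fewest and 20804568 in the one with the most, with medians of 19800256 on C and 19724610 on HC. Genes that some cows expressed and others did not (every sample below 0.5 or above 2 CPM) numbered 7, and in all 9 cows the C and HC samples were alike in 7 of the 7. The deposited tables carry Ensembl identifiers without names. Symbols could be paired with 77 identifiers only, those that the study had tabulated for their difference between feed efficiency groups in these and the Jersey cows, and 75 of them were tested. None of the 10 hepatocyte markers chosen to check the tissue was among them, so the liver label could not be checked against its markers, and most of the metabolism named above could not be followed by gene name.

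On HC, 153 genes were higher and 192 were lower, which is 1.27% and 1.60% of the genes tested and 2.87% together. Most changes were small. The median log2 fold change was 0.46 among the genes that rose and -0.42 among those that fell, and 215 of the 345 differentially expressed genes (DEGs) changed by less than 0.5 on the log2 scale. Over all genes tested the median log2 fold change was -0.00083, and the median of its absolute value was 0.088. A change of more than 1 was reached by 15 genes that rose and 9 that fell, and a change of more than 2 by 3 that rose and 1 that fell. The genes that fell were more abundant, with a median level over both diets of 35.8 CPM against 18.6 CPM for those that rose and 12.2 CPM for all genes tested. Genes above 100 CPM made up 41 of the 192 that fell and 26 of the 153 that rose, against 1022 of all 12025 genes tested. A DEG passed an adjusted p of 0.05 (Benjamini-Hochberg, all genes tested) in the quasi-likelihood test of edgeR with the cow as a fixed block. With parity and feed efficiency in place of the block, 94 genes passed, 31 higher and 63 lower, so that the share of higher genes went from 44.3% to 33.0%.

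**Figure D1:**
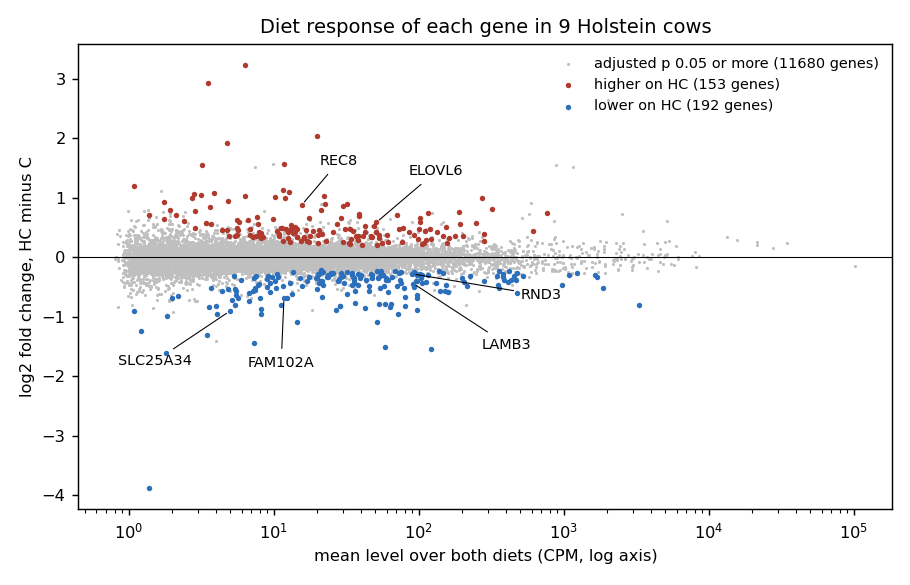
Log2 fold change, HC minus C, of each of the 12025 genes tested in the 9 Holsteins (vertical axis) against its mean level over both diets in CPM (horizontal log axis). Red points are the 153 DEGs that rose on HC, blue points the 192 that fell and grey points the other genes, and the 6 DEGs with a symbol are labelled. Most coloured points lie within 1 log2 unit of no change.

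Of the 6 named DEGs, 4 fell on HC and each fell in all 9 cows. LAMB3 (ENSBTAG00000016542), which encodes the beta chain of a laminin of basement membranes, ranged from 31.0 to 198 CPM on C, with a median of 101, and from 24.4 to 139 CPM on HC, with a median of 78.4. The cows differed more from each other than the diets did, and the ranges of the diets overlapped, but every cow was lower on HC. The log2 fold change was -0.44 (SE 0.053, adjusted p = 0.00211 in edgeR), from -0.63 to -0.22 over the cows.

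RND3 (ENSBTAG00000039731) ranged from 69.2 to 125 CPM on C (median 98.3) and from 61.5 to 98.4 CPM on HC (median 83.3). Its log2 fold change was the smallest of the named DEGs, -0.28 (SE 0.063, adjusted p = 0.0306 in edgeR). This call ended when cow 1, 9, 11 or 19 was left out, with adjusted p-values of 0.0724, 0.0792, 0.0696 and 0.0639.

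SLC25A34 (ENSBTAG00000018723), a member of the mitochondrial carrier family, ranged from 2.80 to 11.2 CPM on C (median 5.56) and from 1.60 to 9.13 CPM on HC (median 2.50). Its log2 fold change of -0.91 (SE 0.19, adjusted p = 0.0216 in edgeR) was the largest fall among the named genes. The fall was uneven: 8.72 to 2.50 CPM in cow 1 and 9.43 to 2.37 CPM in cow 11, but 5.26 to 4.60 CPM in cow 6 and 11.2 to 9.13 CPM in cow 16. Without cow 11 the adjusted p was 0.0504.

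FAM102A (ENSBTAG00000023851) ranged from 7.83 to 27.1 CPM on C (median 14.9) and from 4.58 to 12.4 CPM on HC (median 8.17). The cow with the highest level on C, cow 16, fell furthest, from 27.1 to 10.7 CPM. The log2 fold change was -0.69 (SE 0.11, adjusted p = 0.00443 in edgeR). For LAMB3, RND3, SLC25A34 and FAM102A the exact two-sided sign-flip permutation test over the 9 cows gave p = 0.00391, the smallest it can give. The named DEGs had been called in these same cows, so their sign-flip p-values are descriptions and no separate support.

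ELOVL6 and REC8 were the named genes that rose. ELOVL6 (ENSBTAG00000010564), the enzyme that lengthens the long-chain fatty acids made by fatty acid synthase, ranged from 21.1 to 87.1 CPM on C (median 34.3) and from 33.4 to 108 CPM on HC (median 57.3). It rose on HC in 8 of the 9 cows. The exception was cow 7, which had the highest level on C and went from 87.1 to 82.2 CPM. The log2 fold change was 0.59 (SE 0.097, adjusted p = 0.00659 in edgeR; p = 0.00781 in the exact sign-flip permutation test, two-sided).

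REC8 (ENSBTAG00000002705), a cohesin subunit known from meiosis, was expressed in some cows and nearly silent in others. It was at 21.3 CPM on C and 45.7 on HC in cow 1, at 26.1 and 37.0 in cow 6, at 33.1 and 90.8 in cow 11, and at 8.56 and 15.8 in cow 16. In the other 5 cows it lay between 0.0512 and 0.717 CPM on either diet and was higher on HC in 2. All 4 cows with more than 1 CPM were higher on HC, and all carry the label of high feed efficiency, the contrast on which the study had chosen this gene. Cows 1, 11 and 16 ate C first, so their HC sample was also their later one, while cow 6 ate HC first. The log2 fold change was 0.88 (SE 0.15, adjusted p = 0.00750 in edgeR), but over all 9 cows the exact two-sided sign-flip test gave p = 0.0859.

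Of the 6 named DEGs, FAM102A alone passed the edgeR test both with and without the block for the cow. Without it, the adjusted p in edgeR was 0.0600 for RND3, 0.0822 for SLC25A34, 0.141 for ELOVL6, 0.179 for LAMB3 and 0.561 for REC8, with the same signs. With the cow as a random block in limma-voom, FAM102A, RND3 and SLC25A34 passed, and the adjusted p was 0.0554 for ELOVL6, 0.0829 for LAMB3 and 0.391 for REC8.

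**Figure D2:**
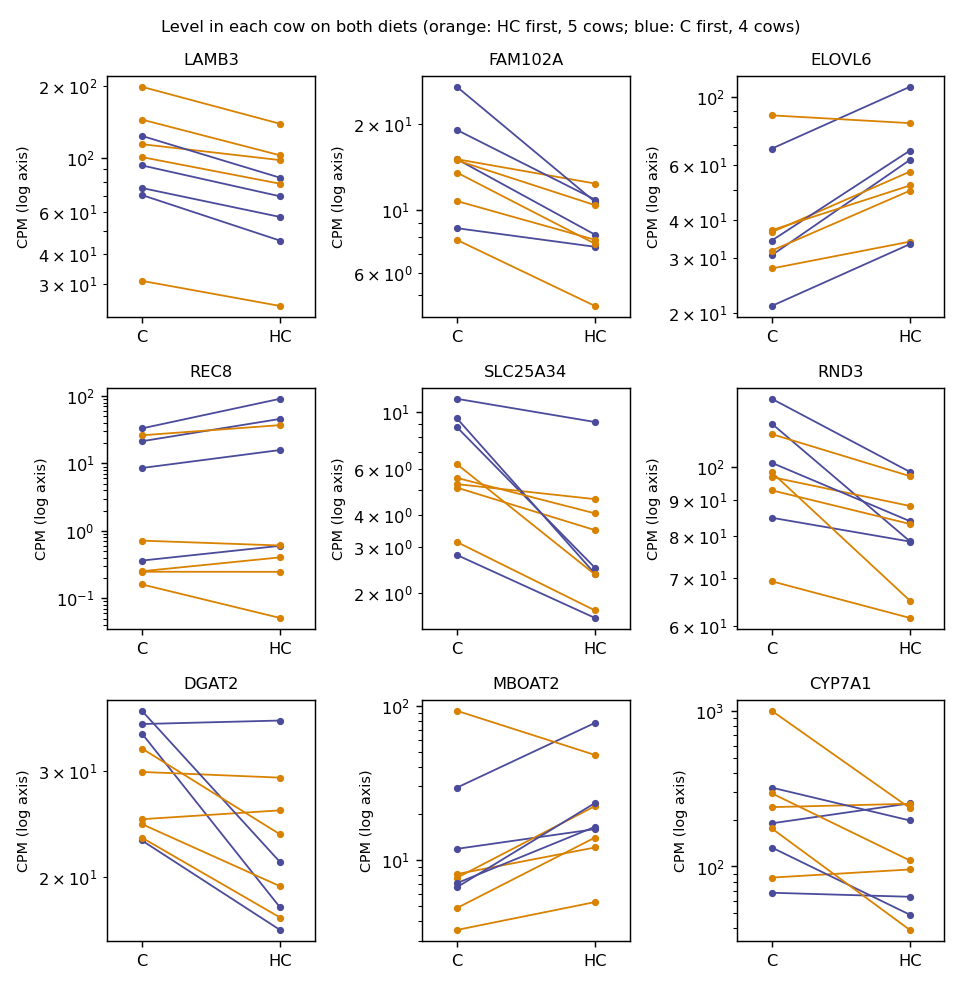
CPM on a log axis of 9 named genes in each Holstein on the C and the HC diet, with a line joining the samples of a cow (orange, the 5 cows that ate HC first, and blue, the 4 that ate C first). All 9 lines fall for LAMB3, FAM102A, SLC25A34 and RND3, 8 of 9 rise for ELOVL6 and MBOAT2, and the lines of CYP7A1 cross.

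Among the 4 named genes of fatty acid and lipid synthesis, 1 rose and 3 did not pass the test, which 2.87% of all genes tested passed. In edgeR, 3 of the 4 had an unadjusted p under 0.05, against 1883 of all 12025 genes. ACACA, which makes malonyl-CoA in the rate-limiting step of fatty acid synthesis, had medians of 42.5 CPM on C and 43.8 on HC, with a change of -0.12 on the log2 scale (SE 0.10, adjusted p = 0.659 in edgeR), and in 4 of the 9 cows the HC sample was the higher. DGAT2, which catalyses the last step of triglyceride synthesis, had medians of 29.9 CPM on C and 21.2 on HC, a change of -0.39 on the log2 scale (SE 0.10, adjusted p = 0.0628 in edgeR). It was lower on HC in 7 of the 9 cows. Cows 7 and 16 were the exceptions. DGAT2 passed the test in 6 of 19 alternatives, with an adjusted p of 0.0479 with period added, 0.0140 in DESeq2 with the block, 0.0445 with no limit on low counts, 0.0429 without cow 7, 0.0353 without cow 16 and 0.00391 with the share of read pairs outside genes as a covariate. MBOAT2, an acyltransferase of phospholipid remodelling, had 8 of the 9 cows higher on HC, with medians of 7.67 CPM on C and 16.4 on HC and a change of 0.89 on the log2 scale (SE 0.24, adjusted p = 0.0640 in edgeR). Cow 7 again went the other way, from 92.8 to 48 CPM, and without this cow the log2 fold change was 1.15 with an adjusted p of 0.00236. It also passed in DESeq2 with the block (adjusted p = 0.0257) and with no limit on low counts (adjusted p = 0.0263). MBOAT2 was singled out after its values were seen. Leaving out a cow that went against the others favours a pass, here cow 7 for MBOAT2 and cows 7 and 16 for DGAT2. Passes without these cows are descriptions and no separate support.

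None of the 5 named genes of bile acids, steroids and xenobiotics passed the test, which 2.87% of all genes tested passed. In edgeR, 2 of the 5 had an unadjusted p under 0.05, against 1883 of all 12025 genes. CYP7A1, the rate-limiting enzyme of bile acid synthesis, varied most between cows, from 67.8 to 1004 CPM on C (median 190) and from 39.1 to 255 CPM on HC (median 109). It was lower on HC in 6 of the 9 cows, with a change of -0.80 on the log2 scale (SE 0.27, adjusted p = 0.151 in edgeR). NR1H4, the bile acid receptor FXR, stayed between 48.8 and 74.7 CPM in all 18 samples, with a change of 0.011 on the log2 scale (SE 0.057, adjusted p = 0.954 in edgeR). CYP11A1, which makes pregnenolone from cholesterol, was chosen after its values were seen. Its level was higher on HC in 7 cows, by a change of 0.62 on the log2 scale (SE 0.18, adjusted p = 0.0915 in edgeR). The drug-metabolising CYP3A4 had a change of 0.057 on the log2 scale (SE 0.079, adjusted p = 0.794 in edgeR).

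The 4 named genes of peroxisomal oxidation and ketone use had log2 fold changes from -0.29 to -0.013. None passed the test, which 2.87% of all genes tested passed, and 1 of the 4 had an unadjusted p under 0.05 in edgeR. HSD17B4, an enzyme of peroxisomal beta-oxidation, had a change of -0.099 on the log2 scale (SE 0.059, adjusted p = 0.473 in edgeR), BDH2 of -0.075 (SE 0.054, adjusted p = 0.562) and HACL1, a lyase of alpha-oxidation, of -0.013 (SE 0.064, adjusted p = 0.950). ACOT8, a peroxisomal thioesterase chosen after its values were seen, was at -0.29 (SE 0.089, adjusted p = 0.104 in edgeR) and lower on HC in 7 of the 9 cows. Without cow 16 its adjusted p in edgeR was 0.0416, but cow 16 was higher on HC, so leaving it out favours a pass. CTH, which makes cysteine from cystathionine, was at 0.26 (SE 0.085, adjusted p = 0.134 in edgeR) and higher on HC in 7 of the 9 cows.

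None of the 13 named leukocyte, interferon and antigen genes passed the test, which 2.87% of all genes tested passed. Their log2 fold changes ranged from -0.28 to 0.17 with a median of 0.026, and 0 of the 13 had an unadjusted p under 0.05 in edgeR, against 1883 of all 12025 genes. The T cell gene CD3D had medians of 4.23 CPM on C and 3.75 on HC, and NKG7 of NK and T cells had 11.2 and 10.8. Their log2 fold changes were -0.21 (SE 0.13) and -0.019 (SE 0.075). The interferon-induced IFI6 was at 0.10 (SE 0.079). The class I antigen genes BOLA-A, at 0.029 (SE 0.087), and JSP.1, at -0.28 (SE 0.16), belong to a family of similar sequences, so their counts are uncertain where a read pair could come from more than 1 member. These 13 genes are no full marker list of any cell type, since 2 of the 11 T and NK cell markers and none of the other 10 marker lists could be paired.

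The 5 named genes of growth and hormone signalling did not pass the test either, and 0 of the 5 had an unadjusted p under 0.05 in edgeR. SOCS2, the feedback inhibitor of growth hormone signalling, was at -0.17 (SE 0.14, adjusted p = 0.620 in edgeR) and INHBE, an activin subunit secreted by the liver, at -0.27 (SE 0.14, adjusted p = 0.406 in edgeR). Of the 6 transporters, SLC25A34 fell and 5 did not pass. An unadjusted p under 0.05 in edgeR was reached by 5 of the 6, against 1883 of all 12025 genes, with SLC17A1 and MFSD1 higher on HC and the others lower. Of these, the phosphate transporter SLC20A1 was at -0.37 (SE 0.11, adjusted p = 0.110 in edgeR) and SLC6A11, of the GABA transporter family, at -0.26 (SE 0.074, adjusted p = 0.0885 in edgeR, and 0.0337 without cow 2). Of the 10 adhesion, matrix and cytoskeleton genes 2 fell, LAMB3 and RND3, and of the 8 nuclear and cell cycle genes 1 rose, REC8. In each of these groups 3 genes had an unadjusted p under 0.05 in edgeR. INTS7, a subunit of the Integrator complex, had 9 of the 9 cows higher on HC, by a change of only 0.18 on the log2 scale (SE 0.056, adjusted p = 0.118 in edgeR). SLC20A1, SLC6A11 and INTS7 were chosen after their values were seen. In all, 6 of the 75 genes with a symbol were DEGs, 8.0% against 2.87% of all genes, but 61 of these 75 had been picked for feed efficiency differences in these same samples and the others in the Jersey samples, so they are no sample of the transcriptome.

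The genes with the smallest p-values have no paired symbol. ENSBTAG00000008039 rose from a median of 86.8 CPM (42.5 to 142) on C to 151 CPM (70.8 to 197) on HC, a change of 0.74 on the log2 scale (SE 0.077, adjusted p = 0.00116 in edgeR). Its diets overlapped between cows, but each cow rose. ENSBTAG00000016060 lay between 6.07 and 8.80 CPM in all 9 C samples and between 10.2 and 25.5 CPM in all 9 HC samples, so the groups did not overlap. Its log2 fold change was 1.00 (SE 0.12, adjusted p = 0.00211 in edgeR). Both genes were higher on HC in all 9 cows (p = 0.00391 each in the exact sign-flip permutation test, two-sided). They had been picked by their small p-values in these same cows, so this p is a description and no separate support.

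ENSBTAG00000006440 fell from a median of 2.54 CPM (1.10 to 5.16) to 0.871 CPM (0.342 to 1.93), a change of -1.62 on the log2 scale (SE 0.19, adjusted p = 0.00211 in edgeR). ENSBTAG00000011624 had 462 read pairs over the 9 C samples and 31 over the 9 HC samples, with 0 read pairs in 4 of the HC samples. It reached 1 CPM in 8 C samples and 0 HC samples, so it passed the limit on low counts only through the diet on which it was higher. Its median was 3.01 CPM on C, with a range from 0.166 to 5.41, and no HC sample was above 0.512 CPM. The fitted log2 fold change was -3.88 (SE 0.37, adjusted p = 0.000801 in edgeR). On the same scale, CPM before the normalisation factors were applied, ENSBTAG00000006440 reached 1 CPM in 9 C and 2 HC samples, so it too passed through C. For these 2 genes the limit on low counts itself favours a fall, and their lower level on HC in all 9 cows is a description.

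The 3 largest rises were less even. The gene with a change of 3.23 on the log2 scale (SE 0.49, adjusted p = 0.00436 in edgeR) went from 2.78 to 69.3 CPM in cow 19 and from 1.38 to 21.9 CPM in cow 7. In cow 1 it went the other way, from 1.16 to 0.433 CPM, and in cow 11 it was below 0.05 CPM on both diets. The gene with a change of 2.94 on the log2 scale (SE 0.42, adjusted p = 0.00361 in edgeR) had 8 of the 9 cows higher on HC, and the one with 2.04 (SE 0.40, adjusted p = 0.0165 in edgeR) in 8 of the 9 as well. These genes without a symbol were singled out for their size after the values were seen. The genes at 3.23 and 2.94 were below 1 CPM in most C samples and above it in most HC samples. They passed the limit on low counts mainly through HC, so the limit itself favours a rise, and their counts of cows are a description.

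How alike were the cows? Of the 345 DEGs, 201 moved 1 way in 9 of the 9 cows, 131 in 8, 12 in 7 and 1, REC8, in 6. Of the genes that rose, 78 rose in every cow, and of those that fell, 123 fell in every cow. Among all genes tested, 348, or 2.89%, moved 1 way in all 9 cows. The DEGs had been chosen in the same 9 cows, so a cow was also compared with a fit that did not include it. For each cow in turn, DEGs were called in the other 8 cows and the sign of HC minus C was read in the cow left out. The limit on low counts was still set over all 9 cows. A median of 89.2% of these genes had the same sign in the cow left out, against a median of 58.5% of all genes tested.

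Cows 11, 9, 19, 1 and 6 followed the others most closely, with 95.5%, 92.4%, 91.7%, 90.7% and 89.2% of the genes in the same direction. Cow 15 had 83.4%. Cows 16, 2 and 7 followed them least, with 75.3%, 74.5% and 68.4%. Over all genes tested the shares ran from 51.8% in cow 1 to 61.2% in cow 6, and were 53.3%, 52.2% and 55.5% in cows 16, 2 and 7. In cow 7 the median difference along the direction of the other cows was 0.16 on the log2 scale, against 0.56 in cow 11. Cows 2, 7 and 16 differ in parity, feed efficiency label and order of diets, since cows 2 and 7 are of low and cow 16 of high feed efficiency, and cow 7 ate HC first while the others ate C first. The number of DEGs fell to 157 without cow 11, 157 without cow 19, 158 without cow 9, 205 without cow 1 and 213 without cow 6, and was 392 without cow 16. In all 9 of these fits, 122 genes were called along with the fit of all cows.

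**Figure D3:**
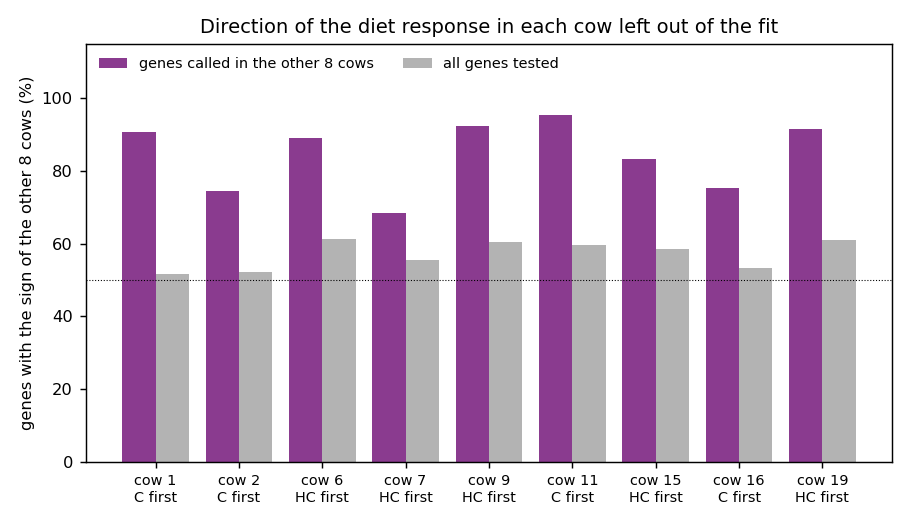
Share of genes (%, vertical axis) whose HC minus C difference in the cow left out had the sign of the fit in the other 8 Holsteins, for the genes called in those 8 cows (purple bars) and for all genes tested (grey bars), with a dotted line at 50%. The purple bar is above the grey bar in each of the 9 cows and is lowest in cow 7, at 68.4% against 55.5%.

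Across all genes tested, the HC minus C differences of 2 cows correlated with a median Pearson r of 0.16 over the 36 pairs of cows, from -0.20 to 0.37, and 5 of the pairs were negative. Genes are not independent replicates, and these correlations are descriptions without a test. The cow accounted for a median of 54.5% of a gene's sum of squares, the diet for 4.16% and the residual for 35.9%. Their shares of the degrees of freedom were 47.1%, 5.88% and 47.1%, so the share of the cow was only moderately above its degrees of freedom.

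The order of the diets was not balanced, so period was examined. With period in the fit beside cow and diet, 0 of 12025 genes differed between the periods in edgeR (374 with an unadjusted p under 0.05), and 311 genes differed between the diets, of which 284 were among the 345. In the 5 cows that ate HC first, 105 genes were DEGs, 0.873% of those tested, with 64 higher and 41 lower. In the 4 cows that ate C first, edgeR called 0 genes, with 764 at an unadjusted p under 0.05. Of the 105 genes, 84 (80.0%) had the same sign in the C-first cows, against 65.2% of all genes tested. Their median change was 0.71 on the log2 scale in the HC-first cows that chose them and 0.29 in the C-first cows. The C-first cows took no part in these calls, but the limit on low counts was set over all 18 samples. ELOVL6 had a log2 fold change of 0.39 in the HC-first and 0.84 in the C-first cows, SLC25A34 of -0.67 and -1.20, and LAMB3 of -0.39 and -0.50. REC8 was at 0.34 in the HC-first cows (adjusted p = 0.504 in edgeR) and at 1.14 in the C-first cows. With period in the fit REC8 was at 0.74 (adjusted p = 0.00755 in edgeR). In this design the period term is also the test of a difference in the diet response between the 2 orders, so no gene was called for such a difference.

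No gene was found to respond differently by feed efficiency. The interaction of diet and feed efficiency gave 0 genes in edgeR, where 365 had an unadjusted p under 0.05 and the smallest adjusted p was 0.859, and 0 genes in DESeq2, where 196 had an unadjusted p under 0.05. For all 345 DEGs the mean differences of the 5 high and the 4 low feed efficiency cows had the same sign, as the choice of the genes in both groups together favours. The median size along that direction was 0.46 in the high and 0.40 in the low feed efficiency cows.

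The Jerseys give cows in which the Holstein genes had not been chosen. Of genes that some Jerseys expressed and others did not there were 5. The C and HC samples were alike in 5 of 5 in 8 Jersey cows, but in 3 of 5 in those labelled 10 and 17, whose C samples were alike with each other in 5 of 5, as were their HC samples. At these few genes the samples of the 2 cows thus go against their labels. Across genes, the C and HC samples correlated by 0.038 in cow 10 and 0.20 in cow 17. The C samples of the 2 cows correlated by 0.084 and their HC samples by 0.19. In the other Jerseys the C and HC samples of a cow correlated by -0.056 (cow 14) to 0.59 (cow 18). Whether labels were exchanged was not tested. The labels were used as given, and results without cows 10 and 17 are given as well. In the 10 Jerseys, 71 of 11905 genes (0.596%) were DEGs between the diets, 45 higher and 26 lower on HC. Of the 345 Holstein DEGs, 339 were tested in the Jerseys and 278 of them (82.0%) had the same sign there, against 57.5% of the 11827 genes tested in both breeds. The median change of the 339 genes was 0.44 in the Holsteins that chose them and 0.17 in the Jerseys. Conversely, 70 of the 71 Jersey DEGs were tested in the Holsteins and all 70 had the same sign there, with medians of 0.59 in the Jerseys and 0.38 in the Holsteins. DEGs of both breeds numbered 26, which is 7.54% of the Holstein and 36.6% of the Jersey DEGs, and all 26 moved in the same direction. In the Jerseys the log2 fold change was -0.33 (SE 0.091) for LAMB3, -0.44 (SE 0.15) for FAM102A, -0.61 (SE 0.18) for SLC25A34, -0.18 (SE 0.097) for RND3 and 0.35 (SE 0.14) for ELOVL6. All 5 had the Holstein sign and none passed the test in the Jerseys, with adjusted p-values from 0.140 to 0.462 in edgeR.

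The difference between the breeds was tested as such. Of 11827 genes, 0 were called for a different response to the diet in Holsteins and Jerseys in edgeR (smallest adjusted p = 0.541) and 0 in DESeq2. Those with an unadjusted p under 0.05 numbered 966 and 929. In edgeR they included 129 of the 339 Holstein DEGs, as the choice of these genes by their Holstein response favours. The absence of a call does not show that the responses were equal. The Holstein minus Jersey difference in log2 fold change was -1.04 for CYP7A1 (adjusted p = 0.551 in edgeR) and 1.01 for CYP11A1 (adjusted p = 0.541 in edgeR), neither past the threshold. Without cows 10 and 17, a choice made after the data were seen, the Jerseys gave 23 DEGs, 295 of the 339 Holstein genes (87.0%) had the same sign, against 57.8% of all genes, and 14 genes were DEGs in both breeds. The breed test then gave 0 genes in edgeR, with 696 at an unadjusted p under 0.05 and a smallest adjusted p of 0.813. In the other 8 Jerseys the log2 fold change was -0.25 for LAMB3, -0.40 for FAM102A, -0.64 for SLC25A34, -0.18 for RND3 and 0.49 for ELOVL6, with adjusted p-values from 0.211 to 0.684 in edgeR. The breed difference was -1.17 for CYP7A1 and 0.71 for CYP11A1 (adjusted p = 0.813 for each in edgeR).

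**Figure D4:**
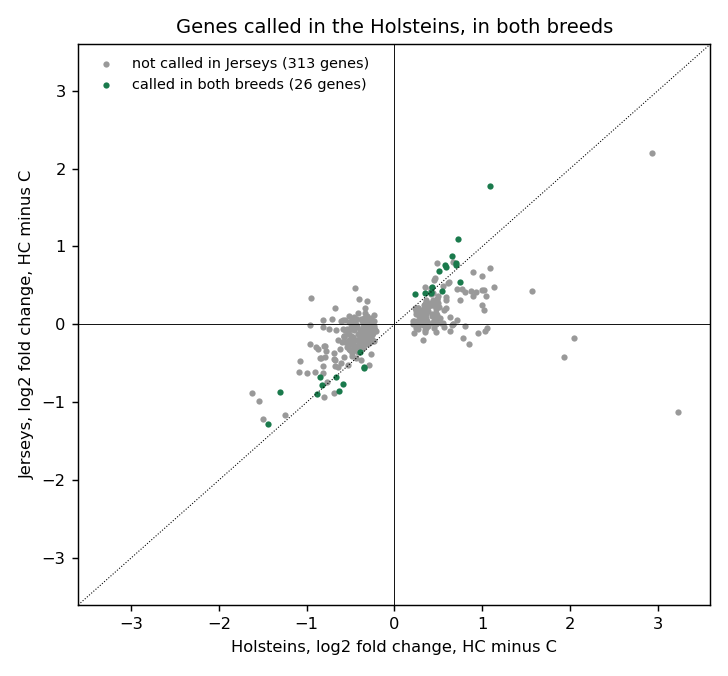
Log2 fold change, HC minus C, in the 10 Jerseys (vertical axis) against that in the 9 Holsteins (horizontal axis) for the 339 Holstein DEGs tested in both breeds. Green points are the 26 genes that were DEGs in both breeds, grey points were not called in the Jerseys, and the dotted line marks equal change. Of the 339 points, 278 lie in the quadrants of equal sign, and most lie nearer to 0 on the Jersey axis.

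The share of read pairs that fell outside annotated genes was lower on HC in most cows. It was 24.5% ± 0.397 (SD, n = 9 cows) on C and 23.2% ± 1.56 on HC, and in 7 of the 9 cows lower on HC (p = 0.0586, exact permutation test by sign flips, two-sided). On C the 9 samples lay between 24.0% and 24.9%, while on HC they spread from 20.1% in cow 16 to 25.1% in cow 1. With the log ratio of read pairs outside and on genes as a covariate beside the block, which was tried after the data were seen, 533 genes were DEGs between the diets, 215 of them among the 345, and all 345 kept their sign. The part of this share in the diet response was not tested further.

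**Figure D5:**
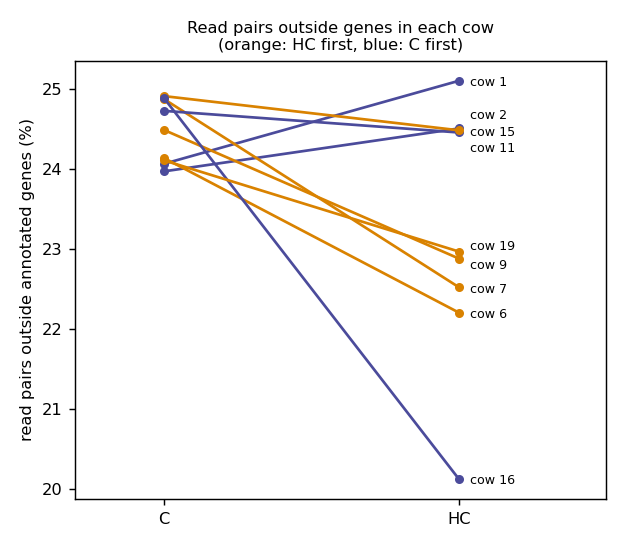
Share of read pairs outside annotated genes (%, vertical axis, which does not start at 0) in each Holstein on the C and the HC diet, with a line joining the samples of a cow (orange, HC first, and blue, C first). The C samples lie between 24.0% and 24.9% and the HC samples between 20.1% and 25.1%, and 7 of the 9 lines fall.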

How the data were processed

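Liver RNA of 9 Holstein cows, each on both diets, was sequenced from stranded mRNA libraries. The authors aligned read pairs with STAR 2.3.0 to UMD3.1 with the Ensembl annotation and deposited raw HTSeq counts of read pairs on each gene. The HTSeq version and strand setting are not given in the sources used here, so overlapping and antisense genes are uncertain. Read pairs outside genes stayed out of library sizes and tests.

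Genes with 1 CPM in at least 8 Holstein (10 Jersey) samples were fitted in R 4.3.3 with edgeR 4.0.16 (TMM, quasi-likelihood F-test, two-sided, cow as fixed block). SE is the log2 fold change over the root of F. DESeq2 1.42.0 and limma 3.58.1 (voom) gave alternatives. The study's own tabulated contrasts concern feed efficiency, pooled over diets or within each, and its interaction with diet. The study's models held parity and diet and no cow term. CPM values are TMM-scaled, and cow differences are log2 CPM with a prior count of 2. Samples pair by the cow number in their labels; the deviations of a cow's samples from the diet means correlated by 0.087 to 0.56, and 16 of 18 samples were most like the other sample of their cow. No samples were duplicates (chi-square per degree of freedom of at least 20.4). The fit was tested on simulated counts.

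Cow numbers and feed efficiency come from the labels, and the order of diets from the study's table of animals. Separate cows are the replicates. The rule named the 12 symbols with the smallest p and the 5 largest changes per direction among DEGs, DEGs of 24 gene lists with up to 4 other members each, and the 5 smallest p of the breed test. With few symbols this left 6 DEGs and 16 list members, of 9 lists, beside 4 identifiers. Members, lists and tests were chosen with earlier results of these data known. Alternatives were the block, tools, scaling, filters, period, diet order and each cow left out. No sequences, coordinates or gene set tests were used. A gene at 1 CPM has about 20 read pairs in a sample, which limits its precision.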

Additional observations from a re-analysis of the deposited data

Results flagged for a closer look

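In 33 genes, the 9 HC minus C differences were examined for 1 cow far from the others, by the gap to the nearest cow as a share of the whole range. Chance marks about 1 in 20 genes. In CYP3A4, cow 15 differed by -0.57 on the log2 scale and the next lowest cow by -0.055. In JSP.1, cow 15 differed by -1.79 and the next by -0.45. In MBOAT2, cow 7 differed by -0.95 while the other 8 cows were at 0.42 or higher. No gene of the 33 moved in opposite directions in all cows of the 2 diet orders or of the 2 feed efficiency groups. FDXR, a named gene outside the 33, did so by feed efficiency. It was higher on HC in all 5 cows of high and lower in all 4 of low feed efficiency. Its interaction, low minus high, was -0.54 on the log2 scale (adjusted p = 0.998 in edgeR), and it was singled out after its values were seen.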

How the results depend on the processing

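The Holstein count of 345 DEGs was 94 with no replicate block, 526 in DESeq2 with the replicate block, 533 with read pairs outside genes as a covariate, 105 in the HC-first and 0 in the C-first cows, and between 157 and 392 with 1 cow left out. With the other alternatives it stayed between 271 and 369. None of the 345 changed sign under any alternative in which it was fitted. Each alternative reused some or all of the samples that chose these genes, which favours an unchanged sign. The Jersey count of 71 was 44 without the block and 23 without cows 10 and 17.

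Values of the 6 DEGs and 4 identifiers kept their direction in every alternative in which they were fitted, as the reuse of the same samples favours. Among the 23 other genes followed under the alternatives, 7 turned sign in at least 1: HACL1 to 0.012 and UHRF1 to -0.012 in HC-first cows, NR1H4 to -0.041 and BOLA-A to -0.054 in C-first cows, and ACACA to 0.076, CYP3A4 to -0.037 and BOLA-A to -0.049 with the covariate. Leaving out 1 cow gave ranges of -0.050 to 0.019 for HACL1, -0.016 to 0.039 for NR1H4, -0.016 to 0.071 for BOLA-A and -0.064 to 0.019 for NKG7. The causes were not tested. The share of left-out directions was 88.9% with DESeq2 size factors. The interaction counts stayed at 0. Genes near 1 CPM rest on few read pairs and have the least precise fold changes. Each cow had 1 biopsy per diet, period came from the study's table and not from the labels, and most genes could not be named.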
